A study of Mus musculus with 8 samples.

Results

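Scube3 and the genes of transforming growth factor beta (TGF-β) signalling were followed in 4T1 cells, an established line from a mammary carcinoma of the mouse. The 10 genes were listed by role, with earlier results of these data known: the secreted factor Scube3, the ligands Tgfb1, Tgfb2 and Tgfb3, the receptors Tgfbr1, Tgfbr2 and Tgfbr3, the signal transducer Smad3, and the feedback genes Smad7 and Skil. All 10 were among the 20189 genes measured. Wild-type 4T1 cells had been treated with 5 mM acetate or its vehicle, water, for 48 h, with 4 libraries in each group, and every library came from this 1 cell line in culture. Same-numbered libraries of the groups formed 4 pairs, which the study counted as independent experiments. Acetate is turned into acetyl-CoA, and the study asked how the acetyl-CoA supply bears on the expression of genes linked to metastasis.

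TGF-β ligands are secreted in a latent form, tied to their own propeptide and to matrix proteins, and have to be released before they bind. The freed ligand joins the type II receptor (Tgfbr2) with the type I receptor (Tgfbr1), which phosphorylates Smad2 and Smad3, and these enter the nucleus with Smad4. Betaglycan (Tgfbr3) presents ligand, above all Tgfb2, to the other receptors. Smad7, which blocks the type I receptor, and Skil (SnoN), which represses SMAD target genes, are both induced by the pathway and restrain it. Scube3 is a secreted glycoprotein with EGF-like repeats and a CUB domain that can bind the type II receptor. In mammary carcinoma cells, TGF-β is known both to slow division and to promote invasion.

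Values are normalised reads, that is reads per gene scaled to a total of 20000000 per library, and depth ran from 19.9 to 29.3 M reads (M, mega) over the genes measured. Over all genes, 1744 of 20189 (8.64%) passed an adjusted p of 0.05 in limma with the pairs as a block, 1209 higher (5.99%) and 535 lower (2.65%) in acetate. The share of higher genes among these calls was 69.3%, and 54.9% with median-of-ratios scaling. Without the block 0 genes passed in limma, and 353 (1.75%) had an unadjusted p under 0.05. The epithelial markers Epcam, Cdh1, Krt8, Krt18, Krt19, Cldn4 and Cldn7 were high throughout, with a summed level between 45863 and 69596 normalised reads. Of 20 markers of fibroblasts, immune cells, endothelium and adipocytes, 11 were in the table. All 4 endothelial markers and the 1 adipocyte marker stayed at or under 6.61 normalised reads, and Ptprc, the pan-leukocyte marker, at or under 3.02. The other immune markers measured were higher, with Cd68 between 66.7 and 191 and Csf1r between 9.55 and 35.5. Pdgfra, a fibroblast marker, lay between 229 and 1961.

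Acetate more than doubled the Scube3 transcript and raised Tgfb3 1.20-fold, while the other 8 genes did not pass the test. Thus 2 of 10 members (20.0%) passed, both higher, beside 8.64% of all genes and 15.0% of genes with a mean of at least 100 normalised reads. The median log2 change of the 10 was 0.06, and that of all genes 0.02. The 2 calls were also made with either other scaling, either pseudocount, the filter on low genes and both count tests, and without each of the pairs in turn. Neither passed in limma without the block (adjusted p 1.00 for both), where 1 of the 10, Scube3, had an unadjusted p under 0.05 (0.0212). As the cells were measured in bulk, more cells with a transcript and more transcript per cell cannot be told apart.

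**Figure D1:**
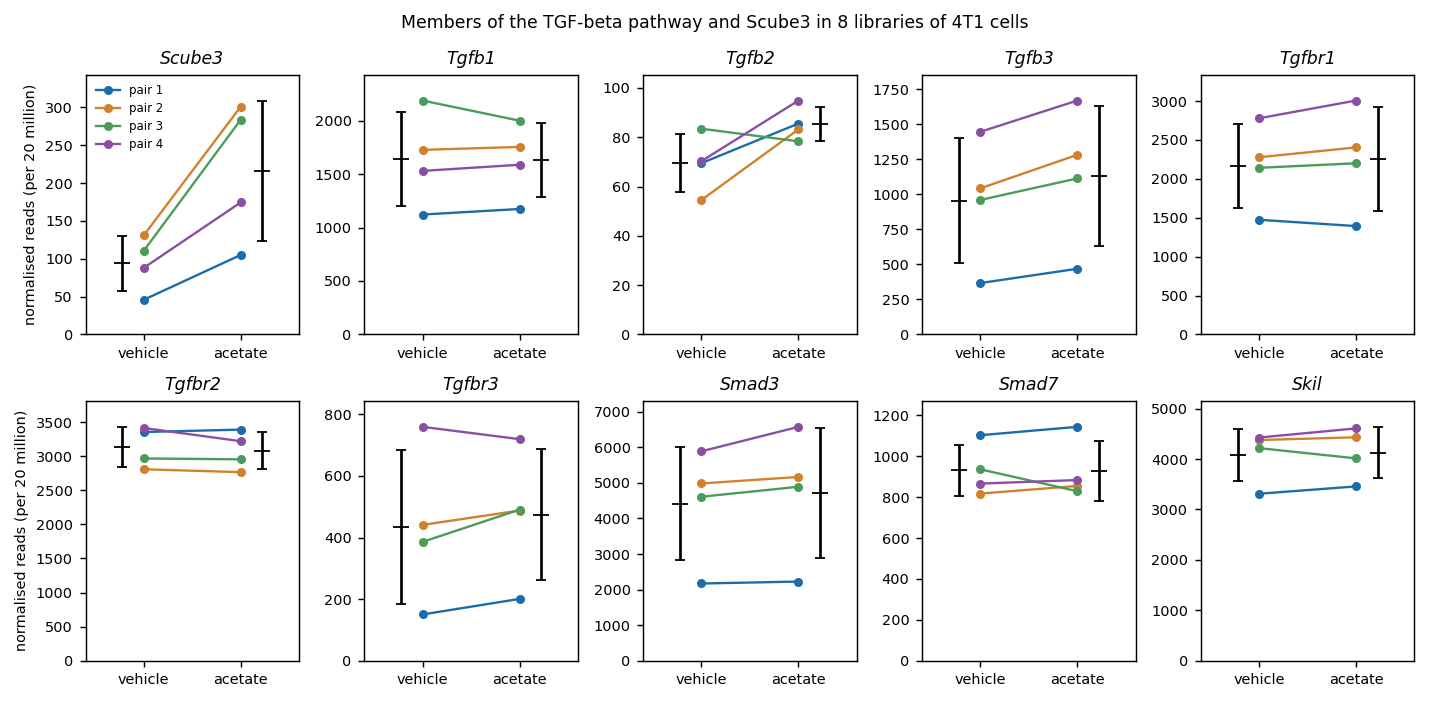
Normalised reads per 20000000 (y, from 0) of each of the 10 genes in the vehicle and acetate libraries, with a line joining the libraries of a pair and a black bar for the mean ± SD of each group (n = 4). The Scube3 lines all rise, from 45.8 to 131 in vehicle to between 105 and 301 in acetate, and for Smad3 both libraries of pair 1 lie far below those of the other pairs.

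Scube3 (ENSMUSG00000038677) is a protein-coding gene on the plus strand of chromosome 17 (28142141 to 28174854, GRCm38). The RefSeq promoter entry of Scube3 begins upstream of that span, and the 82 bases before the start in both annotations (chr17:28142059-28142140, plus strand) are shown as the only stretch upstream of each. Of these bases, 91.5% were A or G. The core SMAD box CAGAC, searched on both strands in the 250 bases before each RefSeq start, is in capitals in the windows of 30 bases below, which are given to show it in a gene that rose and in 1 that did not pass.

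Scube3, upstream of both starts: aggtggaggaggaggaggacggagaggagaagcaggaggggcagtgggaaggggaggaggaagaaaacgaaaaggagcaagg
Scube3, chr17:28142175-28142204, plus strand: ggcgaagaaaaaCAGACggagcccgggaga
Tgfb2, chr1:186706193-186706222, minus strand: cccctccacacaCAGACccttggtgatcac
Tgfb2, chr1:186706176-186706205, minus strand: ccttggtgatcaCAGACagtgactactgca

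The Scube3 box lay 122 bases before the RefSeq start, which is 168 bases inside the GENCODE gene. RefSeq entries (build GRCm38.p6) were given for 6 of the 10 genes, as 7 promoters, and 4 of the 7 held CAGAC. No entry was given for Tgfb3, Tgfbr3, Smad7 or Skil. CAGAC is short, and 42.2% of all 32851 promoter windows of that length held it. The palindromic box GTCTAGAC (0.167% of windows) and the AP-1 site TGANTCA (6.75%), searched on both strands, were in none of the 7 entries.

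The Scube3 transcript had 45.8, 131, 111 and 88.0 normalised reads in vehicle libraries 1 to 4 and 105, 301, 284 and 175 in the acetate libraries. Each acetate library was above its partner, and the groups overlapped, since acetate library 1 lay below vehicle libraries 2 and 3. The ratio of acetate to vehicle was 2.30, 2.30, 2.57 and 1.98 in pairs 1 to 4. The group means were 93.9 ± 36.5 and 216 ± 92.9 (SD, n = 4), and the log2 change was 1.18 ± 0.09 (SE, blocked limma adjusted p 6.04e-05), or 2.26-fold with a 95% interval from 1.98 to 2.58. These values rest on 60 to 373 reads per library. The change of Scube3 ranked 47 among the 1209 genes called higher, and 3 among the 1106 of them with a mean of at least 50 normalised reads. The study followed Scube3 by PCR as well, and how far these libraries guided that choice is not known here.

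The Scube3 span shares 198 bases with a lncRNA gene on the other strand, AC126937.2, which is annotated as a bidirectional-promoter lncRNA. Its level was 25.8 ± 5.13 in vehicle and 23.5 ± 13.0 in acetate, and it did not pass (log2 change -0.39 ± 0.30, SE, adjusted p 0.493). At 4.71 to 33.8 normalised reads it stayed below the rise of Scube3 in each pair. The relatives Scube1 and Scube2 were not analysed here.

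The genes whose level followed Scube3 most closely over the 8 libraries were Ucp2, Tmem38a, Lpcat3, Zfp658 and Dcbld2, out of 11107 genes. Their Pearson r of log2 values with Scube3 was 0.973, 0.967, 0.962, 0.961 and 0.961, over libraries that share replicates and treatment in pairs. Ucp2, a carrier of the inner mitochondrial membrane, rose from 3933 ± 410 to 4712 ± 436 (log2 change 0.26 ± 0.03). Dcbld2, a membrane protein that carries a CUB domain, rose from 4462 ± 432 to 5421 ± 541 (0.28 ± 0.03). Lpcat3, which puts polyunsaturated chains into phospholipids, changed by 0.15 ± 0.04. Tmem38a, a cation channel of the endoplasmic reticulum, and Zfp658, a zinc finger protein, changed by 0.30 ± 0.06 and 0.46 ± 0.09. All 5 passed in blocked limma (adjusted p from 2.31e-04 to 0.0340). Of the other 9 members Tgfb3 was the closest to Scube3 (r 0.649, rank 2239), and Tgfbr2 and Smad7 ran the other way (-0.679 and -0.661).

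**Figure D2:**
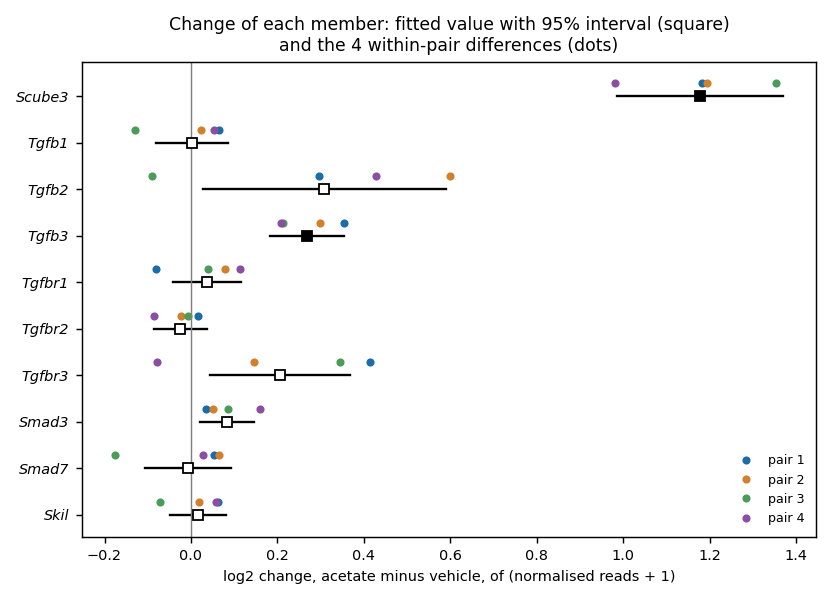
Log2 change of (normalised reads + 1), acetate minus vehicle, of each gene (x), with squares and lines for the fitted change and its 95% interval (filled squares passed in blocked limma) and dots for the 4 pairs. Scube3 stands at 1.18 with every pair at or above 0.98, Tgfb3 at 0.27, and the lines of Tgfb1, Tgfbr1, Tgfbr2, Smad7 and Skil cross 0.

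Of the 3 ligands, Tgfb3 alone passed the test. Tgfb3 (ENSMUSG00000021253, chromosome 12, 86056745 to 86079041, minus strand), best known for its part in palate closure and in mesenchymal change, had 366, 1042, 959 and 1445 normalised reads in vehicle libraries 1 to 4. The acetate libraries had 469, 1281, 1113 and 1668. Every acetate library was higher than its partner, although the spread between pairs was far larger than the step within them. The log2 changes were 0.35, 0.30, 0.21 and 0.21, and the fitted change was 0.27 ± 0.04 (SE, blocked limma adjusted p 0.00201), or 1.20-fold (95% interval 1.14 to 1.28). Means were 953 ± 445 and 1133 ± 500 (SD, n = 4). At its far end the gene shares 5149 bases with Ttll5 on the other strand, a tubulin polyglutamylase with 433 to 857 normalised reads, whose own log2 change was 0.01 ± 0.05 (adjusted p 0.973).

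Tgfb1 (ENSMUSG00000002603, chromosome 7, 25687002 to 25705077) had 1122, 1726, 2187 and 1529 normalised reads in vehicle and 1173, 1754, 1999 and 1587 in acetate. It was higher in 3 pairs and lower in pair 3, and the groups overlapped. The 95% interval of its fold change ran from 0.946 to 1.06, around a log2 change of 0.0027 ± 0.04 (adjusted p 0.983). Tgfb2 (ENSMUSG00000039239, chromosome 1, 186622792 to 186705989) was the scarcest ligand, with 69.5, 54.5, 83.4 and 70.3 normalised reads in vehicle and 85.5, 83.2, 78.3 and 94.9 in acetate. It was lower in acetate only in pair 3. Its log2 change of 0.31 ± 0.13 was as large as that of Tgfb3 and did not pass (adjusted p 0.178), on 67 to 132 reads per library, and the interval of its fold change ran from 1.02 to 1.50.

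Per kb of exon, the ligand pool of 4T1 cells was almost wholly Tgfb1 and Tgfb3. In vehicle Tgfb1 made up 54.2 ± 10.4%, Tgfb3 43.6 ± 11.1% and Tgfb2 2.13 ± 0.94% of the summed level. The Tgfb3 share was higher in acetate in 4 of 4 pairs, by 4.20 ± 1.43 percentage points (SD of the pairs), and the Tgfb1 share was lower in 4 of 4, by -4.46 ± 1.27. The summed level went from 619 ± 188 to 672 ± 195 normalised reads per kb, and was higher in 4 of 4 pairs. Each of these 3 differences had the smallest exact permutation p that 4 pairs allow, which was 0.219 after adjustment over 7 such values and did not pass. In pair 4 Tgfb3 was the larger part in both libraries (57.5% and 59.8%), and in pairs 1 and 3 Tgfb1 was. In pair 2 the larger part was Tgfb1 in vehicle (51.9%) and Tgfb3 in acetate (51.1%).

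**Figure D3:**
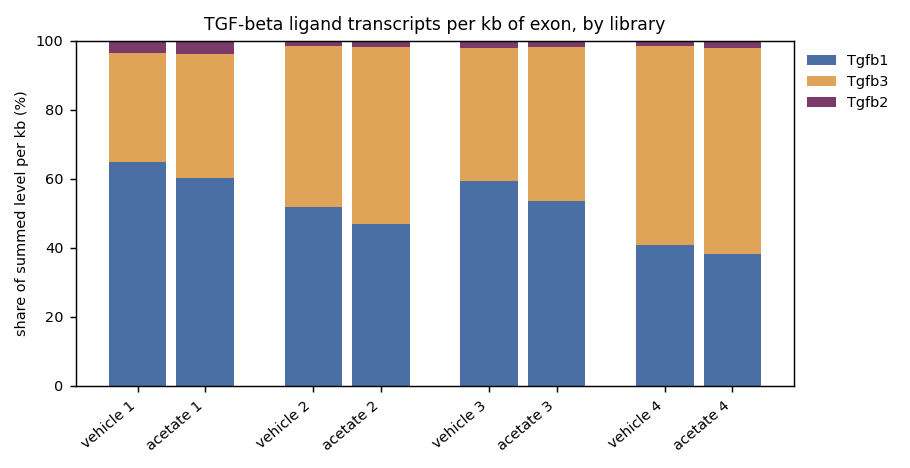
Share of Tgfb1, Tgfb3 and Tgfb2 in the summed ligand level per kb of exon (y, percent, bars from 0 to 100) in each of the 8 libraries, set side by side by pair. The Tgfb3 band is wider in the acetate bar of each pair, by 2.31 to 5.77 points, and its shares are highest in pair 4.

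Of the receptors none passed. Tgfbr2 (ENSMUSG00000032440, chromosome 9, 116084293 to 116175360), the receptor that binds free ligand, had 3353, 2807, 2966 and 3412 normalised reads in vehicle and 3389, 2765, 2953 and 3218 in acetate. Its highest pair mean was 1.21 times its lowest, a narrow range among the members, and the groups overlapped. The log2 change was -0.02 ± 0.03 (SE, blocked limma adjusted p 0.687), and the fold interval of Tgfbr2 ran from 0.942 to 1.03. Tgfbr1 (ENSMUSG00000007613, chromosome 4, 47353222 to 47414931), the signalling kinase, had 1474, 2278, 2142 and 2779 in vehicle and 1393, 2405, 2201 and 3007 in acetate. It was lower in acetate in pair 1 and higher in the 3 others, with a log2 change of 0.04 ± 0.04 (adjusted p 0.601) and a fold interval from 0.972 to 1.08.

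Tgfbr3 (ENSMUSG00000029287, chromosome 5, 107106570 to 107289629), the co-receptor, had 150, 441, 386 and 760 normalised reads in vehicle and 201, 488, 491 and 719 in acetate. It was higher in acetate in 3 pairs and lower in pair 4, so that the pairs did not move alike. The log2 change was 0.21 ± 0.07 (adjusted p 0.117), with a fold interval from 1.03 to 1.29. Between pairs it varied more than any other member, with pair means from 176 to 740. The log2 ratio of Tgfbr1 to Tgfbr2 per kb was -0.86 in vehicle library 1 and between -0.14 and 0.03 in vehicle libraries 2 to 4, and its difference between treatments was 0.06 ± 0.12 (exact permutation p 0.375, 4 pairs).

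Smad3 (ENSMUSG00000032402, chromosome 9, 63646767 to 63757994), which carries the signal to the nucleus, had 2172, 4984, 4611 and 5888 normalised reads in vehicle and 2226, 5168, 4891 and 6576 in acetate. It was higher in 4 of 4 pairs, beside 16.7% of all genes, by a log2 change of 0.08 ± 0.03 that did not pass (adjusted p 0.106). Its fold interval ran from 1.01 to 1.11. The feedback genes moved less. Smad7 (ENSMUSG00000025880, chromosome 18, 75367529 to 75395935) had 1102, 817, 936 and 866 in vehicle and 1143, 855, 829 and 883 in acetate. Its log2 change was -0.01 ± 0.05 (adjusted p 0.956), with a fold interval from 0.929 to 1.07. Skil (ENSMUSG00000027660, chromosome 3, 31095058 to 31122577) had 3312, 4377, 4216 and 4426 in vehicle and 3457, 4431, 4013 and 4607 in acetate, a change of 0.02 ± 0.03 (adjusted p 0.814) and a fold interval from 0.967 to 1.06. Both feedback genes were lower in acetate only in pair 3, as were Tgfb1 and Tgfb2.

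The replicate number moved most of these genes further than acetate did. Of the variance of log2 values, the replicate number held between 92.0% (Smad7) and 99.3% (Smad3) for the 8 members other than Scube3 and Tgfb2. For Scube3 it held 49.4%, and for Tgfb2 23.0%, where treatment held 45.9%. Tgfb3, Tgfbr1, Tgfbr3, Smad3 and Skil shared 1 order of pair means, lowest in pair 1, then 3, 2 and 4. The pair means of Smad3 were 2199, 5076, 4751 and 6232 normalised reads for pairs 1 to 4. Smad7 went the other way in pair 1, where its pair mean of 1123 was above the 836 to 882 of the others. The log2 ratio of Smad7 to Smad3 per kb was thus -0.68 in vehicle library 1 and between -2.47 and -2.01 in the other vehicle libraries, and it differed between treatments by -0.09 ± 0.13 (exact permutation p 0.50). Scube3 was also lowest in pair 1 (pair mean 75.5) and highest in pair 2 (216). The change of Scube3 was 1.18 without pair 1, so it did not rest on that pair.

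Levels could be set against each other per kb of exon. In vehicle the order was Smad3 (796 ± 286 normalised reads per kb, SD, n = 4), Skil (421 ± 53.8), Tgfbr2 (383 ± 36.0), Tgfbr1 (332 ± 82.3), Tgfb1 (325 ± 87.8), Tgfb3 (282 ± 132), Smad7 (206 ± 27.6), Tgfbr3 (66.4 ± 38.3), Tgfb2 (12 ± 2.04) and Scube3 (10.6 ± 4.13). The ranges of neighbours overlapped except at 2 steps, from Smad7 to Tgfbr3 and from Tgfbr3 to Tgfb2. Smad3 was above Skil in all 8 libraries even so. Scube3 and Tgfb2 changed places: Tgfb2 was the higher in 4 of 8 libraries, and in acetate Scube3 averaged 24.5 against 14.8. Even after acetate, Scube3 stayed far below Tgfb3, at a log2 ratio to Tgfb3 per kb of -3.75 ± 0.60 (vehicle -4.67 ± 0.50). That ratio was higher in 4 of 4 pairs, by 0.92 ± 0.16 (adjusted exact permutation p 0.219).

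Around these members, 109 further genes of the pathway had been written in 8 lists, and 94 of them were measured. Of the 94, 10 passed higher and 4 lower (blocked limma), and their median log2 change was 0.05. The 14 made up 14.9% of the 94, beside 8.64% of all genes and 15.0% of genes with a mean of at least 100 normalised reads, a level that 67 of the 94 reached. None of the 94 passed without the block, where 2 inhibitors, Fstl3 and Bgn, had an unadjusted p under 0.05. The groups did not overlap for 1 of the 94 and for 0 of the 10 members, beside 1.65% of all genes.

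**Figure D4:**
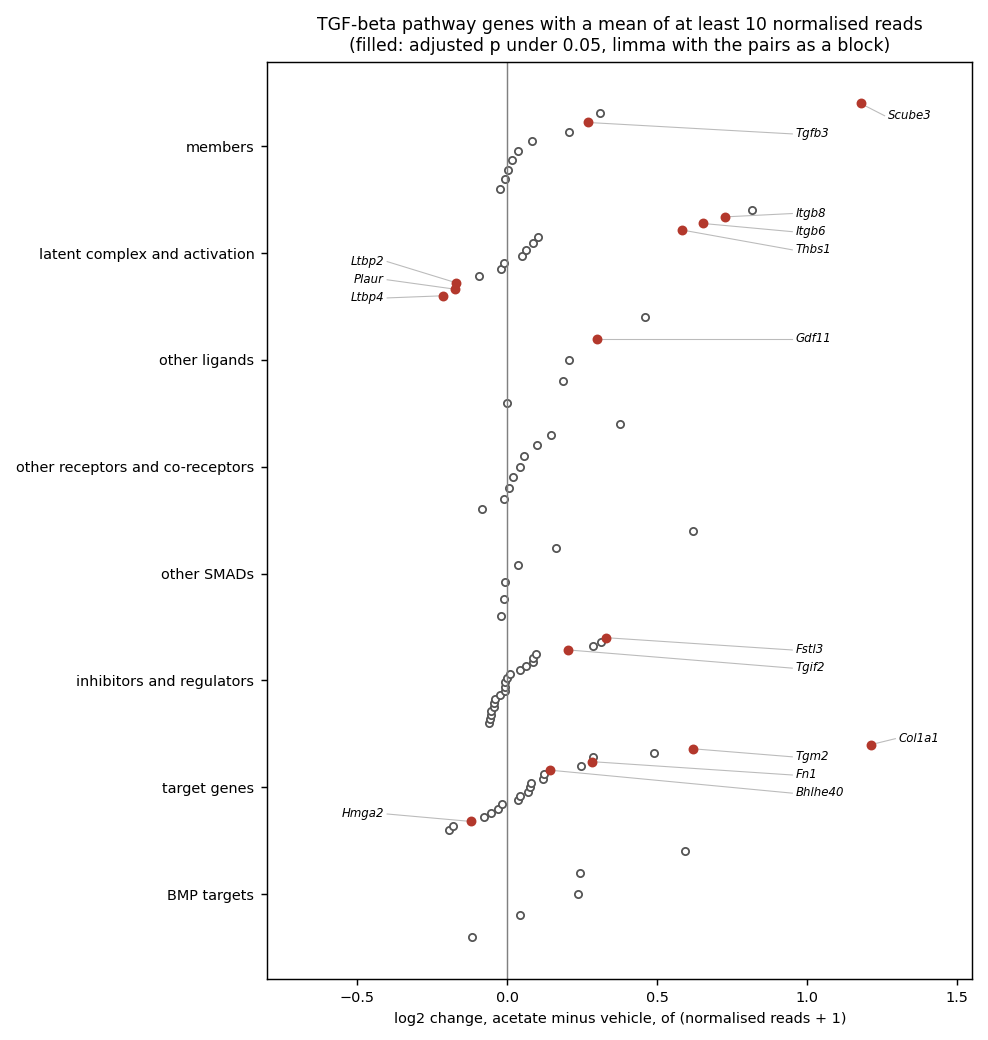
Log2 change of (normalised reads + 1), acetate minus vehicle (x), of each pathway gene with a mean of at least 10 normalised reads, by list (y), with filled points for genes past the threshold in blocked limma. Scube3 and Col1a1 stand furthest right, at 1.18 and 1.21, and the receptors, other SMADs and BMP targets hold no filled point.

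Genes that store and release latent TGF-β moved in both directions. Of 17 measured, 3 passed higher and 3 lower (35.3%, beside 8.64% of all genes), with a median log2 change of 0.06. Of genes with a mean of at least 100 normalised reads, a level that 12 of the 17 reached, 15.0% passed. Itgb6 and Itgb8, which encode the integrin chains that pull latent TGF-β open, rose with Thbs1, a matrix protein known to activate it. Thbs1 had 6201, 3169, 2938 and 7721 normalised reads in vehicle and 8923, 5559, 4586 and 9877 in acetate, a change of 0.58 ± 0.06 (SE, adjusted p 2.48e-04). Itgb6 went from 110 ± 52.4 to 167 ± 52.6 (0.65 ± 0.10, adjusted p 0.00265), and in both groups it was highest in library 1. Itgb8 went from 21.0 ± 9.12 to 35.5 ± 15.6 (0.73 ± 0.18, adjusted p 0.0269), a call lost without pair 2, 3 or 4 (adjusted p from 0.114 to 0.141), with quantile scaling (0.0700) and in DESeq2 (0.130).

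The latent TGF-β binding proteins Ltbp2 and Ltbp4 fell instead, in 4 of 4 pairs each. Ltbp4 had 1078, 2463, 2446 and 3517 normalised reads in vehicle and 977, 2033, 2155 and 2939 in acetate, a change of -0.21 ± 0.03 (adjusted p 0.00261). Ltbp2 went from 4458 ± 1159 to 3924 ± 865 (-0.17 ± 0.03, adjusted p 0.00900), a call lost without pair 3 (adjusted p 0.106) or 4 (0.0803). Plaur, the urokinase receptor, fell by a like amount (-0.17 ± 0.03, adjusted p 0.00856), and did not pass without pair 2 (0.0514) or 3 (0.0779). Mmp9, a gelatinase that can release TGF-β and the most abundant gene of the list, had 15260 ± 7039 and 14189 ± 6004 (-0.09 ± 0.05, adjusted p 0.273). Ltbp1 and Ltbp3 changed by -0.02 ± 0.03 and 0.10 ± 0.03 and did not pass.

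Of 23 target genes measured, 4 passed higher and 1 lower (21.7%, beside 8.64% of all genes), with a median of 0.08. A mean of at least 100 normalised reads, where 15.0% of all genes passed, was reached by 15 of the 23. Tgm2, a matrix cross-linking transglutaminase, rose by 0.62 ± 0.07 (1560 ± 866 and 2255 ± 1083, adjusted p 3.80e-04). Col1a1, a collagen chain that the study also chose for PCR, rose by 1.21 ± 0.15 from a low level (38.1 ± 21.3 and 89.7 ± 46.1, adjusted p 7.61e-04). Fibronectin (Fn1), the most abundant target, rose by 0.28 ± 0.03 (adjusted p 3.38e-04). Bhlhe40, a transcriptional repressor, rose by 0.14 ± 0.03 (adjusted p 0.0174), a call lost without pair 1 (adjusted p 0.0517), 3 (0.134) or 4 (0.0795) and in DESeq2 (0.0628). Hmga2, a chromatin protein, fell by 0.12 on the log2 scale (adjusted p 0.0389), a call lost without pair 1, 2 or 3 (adjusted p from 0.112 to 0.234) and with a pseudocount of 0.1 (0.0624). The other 18 targets stayed short of the threshold. Of these, Ccn2 changed by 0.04 ± 0.08, Junb by -0.08 ± 0.08, Snai1 by 0.12 ± 0.06 and Cdkn1a by -0.05 ± 0.07. Larger changes without a call included those of Tgfbi (0.49 ± 0.23), Nox4 (0.28 ± 0.11) and Pthlh (-0.20 ± 0.17). Of the 23 targets, 15 were higher on average.

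Some markers of more than 1 cell type rose beside these matrix genes. Of the 7 epithelial markers 3 passed, all higher: Krt19 (log2 change 0.40 ± 0.04, adjusted p 2.54e-04), Cldn4 (0.30 ± 0.03, 3.19e-04) and Cdh1 (0.15 ± 0.03, 0.00592). That stands beside 8.64% of all genes and 15.0% of genes with a mean of at least 100 normalised reads. Krt8 (-0.06 ± 0.03), Krt18 (-0.05 ± 0.03) and Cldn7 (-0.04 ± 0.04) were lower, Epcam (0.07 ± 0.03) was higher, and none of these passed. Of the 3 fibroblast markers measured 2 passed, beside the same 8.64% of all genes. Pdgfra went from 994 ± 544 to 1367 ± 680 normalised reads (log2 change 0.52 ± 0.06, adjusted p 3.72e-04) and Pdgfrb from 10.1 ± 8.76 to 23.3 ± 13.8 (1.40 ± 0.29, adjusted p 0.0119). Dcn stayed at or under 14.5 and did not pass (adjusted p 0.314), and Pdgfrb and Dcn were at 0 in at least 1 vehicle library. The summed level of the 3 fibroblast markers measured ran from 229 to 1523 in vehicle and from 394 to 1998 in acetate. The immune marker Csf1r rose from 13.1 ± 3.66 to 28.4 ± 6.20 (1.08 ± 0.20, adjusted p 0.00774), while the summed level of the 3 immune markers ran from 93.1 to 201 and from 100 to 212. The part of these markers in the results was not tested.

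Among 24 inhibitors and regulators, 2 passed higher and 0 lower (8.33%, near the 8.64% of all genes), with a median of -0.0036. A mean of at least 100 normalised reads, where 15.0% of all genes passed, was reached by 20 of the 24. Fstl3, which binds and neutralises activins, went from 310 ± 31.9 to 391 ± 52.7 (0.33 ± 0.05, adjusted p 0.00368), a call lost without pair 3 (0.0536). Tgif2, a repressor of SMAD target genes, went from 483 ± 74.3 to 554 ± 71.6 (0.20 ± 0.05, adjusted p 0.0251), and did not pass when any 1 of the pairs was left out (adjusted p from 0.0701 to 0.150) or in DESeq2 (0.140). Pmepa1, Ski and Smurf2, which restrain the pathway and are partly its own targets, changed by -0.0076 ± 0.03, -0.0083 ± 0.03 and -0.0061 ± 0.03. Fkbp1a, which holds the type I receptor inactive, was the most abundant of the list and changed by 0.09 ± 0.03 (adjusted p 0.111).

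Of 6 other ligands measured, 1 passed: Gdf11, an activin-type ligand that signals through Smad2 and Smad3, had 853, 640, 599 and 478 normalised reads in vehicle and 1076, 812, 696 and 592 in acetate. Its change was 0.30 ± 0.04 (SE, blocked limma adjusted p 0.00148). Bmp1, a procollagen protease named for its discovery with the bone morphogenetic proteins (BMPs), was the most abundant of these (9018 ± 2183 and 9084 ± 2535) and changed by -0.0014 ± 0.03. Of 13 other receptors and co-receptors, 6 other SMADs and 5 BMP targets, 0 passed. Their most abundant genes were Nrp2 (-0.08 ± 0.03), Smad5 (-0.02 ± 0.03) and Id3 (0.04 ± 0.06), and the medians of these lists were 0.04, 0.01 and 0.24. When limma with the block was run only on genes with a mean of at least 10 normalised reads, of which 17.0% passed, 2 of the 9 receptors left, 0 of the 6 SMADs and 2 of the 5 BMP targets passed.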

How the data were processed

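Messenger RNA of 4T1 cells was sequenced from 4 acetate and 4 vehicle libraries. A stranded poly-A kit was used, and reads were aligned to the mouse transcriptome (GRCm38) and quantified by gene in STAR, as the methods state. HTSeq is also named in the submitters' processing notes. Use of strand in the counting is not given in the sources used here. The deposited values are a normalised signal, in which the authors had scaled the reads of a gene to library size and kept genes expressed in enough samples (here above 0 in at least 4 libraries). Every library sums to 20000000. All values were whole multiples of the worth of 1 read (within 0.05 reads), which gave back the reads. In vehicle replicate 3 that worth was near 1 unit (1.005), but the values there were not whole units. edgeR 4.0.16 and DESeq2 1.42.0, run on these reads, served only as alternatives.

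Values were log2-transformed after adding 1 and fitted over 20189 genes with limma 3.58.1 in R 4.3.3 (two-sided, eBayes with trend), with the replicate number as a block and Benjamini-Hochberg adjustment at 0.05. Fold changes on this scale understate those of low genes. Libraries with the same number share a code in the labels, and the pairing by number was taken from there. Same-numbered libraries also deviated together from their group means (correlation over 18188 genes of 0.81, 0.27, 0.20 and 0.69 for replicates 1 to 4). Libraries with different numbers were not compared in this way. These correlations therefore cannot show that the numbers pair the libraries. The study's own enrichment ranking was unpaired, and the fit without the block was therefore run as well. The fit was tested on simulated data. Ratios and shares were compared by exact permutation of the signs of the 4 within-pair differences (two-sided). Levels per kb used the exon length of GENCODE M21, whose positions are on GRCm38 and which named 20004 of the identifiers.

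The 10 members, the 8 wider lists and the marker lists were chosen with earlier results of these data known. A rule named genes beyond the members. It took, in each list, up to 4 genes past the threshold in each direction, by size of change. It also took the gene with the highest mean (at least 100 normalised reads). Some genes short of the threshold were named outside this rule. They were Ltbp1, Ltbp3, Ccn2, Junb, Snai1, Cdkn1a, Tgfbi, Nox4, Pthlh, Pmepa1, Ski and Smurf2, and those under the other observations. Genes like Scube3 were the 5 with the highest Pearson r among genes with a mean of at least 50. Alternatives were pseudocounts of 0.1 and 5, a filter on the mean (at least 10), median-of-ratios and quantile scaling, no block, the count tests, and each pair left out. A target gene and a promoter window are not reported here and were left out of the lists.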

Additional observations from a re-analysis of the deposited data

Results flagged for a closer look

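In each group of 4 libraries, the gap of the highest or lowest library to its neighbour was compared with the range of the group. This was done for the 10 members and the 20 other genes that the rule named. Of the 60 groups tested, 6 held a library that stood apart, where chance gives about 3, and 0 of the 6 belonged to a member. All 6 lay in replicate 1.

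In vehicle, replicate 1 had the top value of Itgb6 (187.8 normalised reads, the others 74.4 to 89.4, gap 0.868 of the range) and of Plaur (3399 against 1896 to 2087, gap 0.873). It was lowest for Nrp2 (6931 against 8830 to 9106, gap 0.873) and Tgif2 (372.6 against 509 to 533, gap 0.848). Acetate replicate 1 was highest for Plaur (2817 against 1763 to 1861, gap 0.907) and lowest for Ltbp2 (2643 against 4225 to 4550). The directions of Itgb6, Plaur, Tgif2 and Ltbp2 between treatments were also found in the 3 other pairs. Nrp2 was higher in acetate in pair 1 (log2 change 0.02) and lower in the 3 others (-0.14, -0.12 and -0.09).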

How the results depend on the processing

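The calls rest on the pairing of libraries. With no replicate block, 0 genes passed, higher or lower, 0 members passed, and 0 genes passed in every list. Scube3 (log2 change 1.18) and Tgfb3 (0.27) kept their values there and lost their calls (adjusted p 1.00 for both). Over the other alternatives Scube3 was at most 1.24, and at least 1.11 in those planned, and Tgfb3 from 0.24 to 0.29, always past the threshold. Leaving out 1 pair gave from 331 to 1103 genes higher and from 78 to 559 lower (fewest without replicate 3). DESeq2 called 653 higher, edgeR 1086 lower and median-of-ratios scaling 821 lower.

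Members near 0 changed sign without passing. Tgfb1 was -0.016 with median-of-ratios scaling, -0.017 in edgeR, -0.018 in DESeq2 and from -0.018 to 0.047 with a pair left out. Skil was -0.0027, -0.00074 and -0.0023 in the first 3. Smad7 ran from -0.031 to 0.049 with a pair left out and was 0.025 in edgeR on pairs 1, 2 and 4, an alternative chosen after seeing the data. Bmp1 was 0.0095 with quantile scaling and from -0.024 to 0.027 with a pair left out, and Id3 from -0.044 to 0.12.

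List counts moved by few genes. Ligands called higher were 1 as reported, 2 with the filter on the mean, quantile scaling, DESeq2 and edgeR on 3 pairs, 3 in edgeR, and 1 to 2 with a pair left out. Receptors called higher were 2 with the filter and 1 with quantile scaling, edgeR and DESeq2, and 0 to 1 with a pair left out. Receptors called lower were 1 in edgeR, and 0 to 1 with a pair left out. BMP targets called higher were 2 with the filter and in edgeR on 4 or 3 pairs, 1 with quantile scaling, and 0 to 1 with a pair left out. Inhibitors called higher were 1 in DESeq2 and in edgeR on 3 pairs, and 0 to 2 with a pair left out. The 1 target called lower was lost (0) with a pseudocount of 0.1, in edgeR on 3 pairs, and without replicate 1, 2 or 3 (0 to 1). Latent complex genes called lower were 1 to 3 with a pair left out. Of the genes named, Itgb8 (10 to 69 reads per library), Col1a1 (13 to 177) and Bgn (1 to 9) rest on few reads.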

Other observations

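Several pathway genes lay just outside the threshold and are named here after their values were seen. Inhba, the activin A chain, was 2081 ± 1033 normalised reads in vehicle and 2337 ± 935 in acetate (0.20 ± 0.06 on the log2 scale, SE, adjusted p 0.0532 in limma with the block). Nrp1, a co-receptor that also binds TGF-β, changed by 0.37 ± 0.11 (adjusted p 0.0522). The inhibitors of differentiation Id1 and Id2, which BMP signals induce, changed by 0.24 ± 0.07 (adjusted p 0.0584) and 0.24 ± 0.07 (0.0615). The proteoglycan gene Bgn was the pathway gene whose groups did not overlap, at 2.29 ± 1.40 and 6.12 ± 1.67 normalised reads, from 1 to 9 reads per library (adjusted p 0.0802).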
